A study of Mus musculus with 3 samples.

Results

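Expression of 41 genes of the germline, of meiosis and of the piRNA pathway was examined in mouse ES cells with reduced NUP153, a protein of the nuclear pore basket. The genes were listed by symbol for their roles in germ cells, with earlier results of these data known, so their counts are a description and not an independent test. All 41 were found among the 24421 counted genes, and each had a read in at least 1 library. RNA-Seq was carried out on EL16.7, a female ES cell line of the F2 background 129S1/CastEiJx 129S1, labelled as undifferentiated. A control library carried a scramble shRNA, and the NUP153 KD-1 and KD-2 libraries each carried a different shRNA against NUP153, all delivered by lentivirus with 4 μg/ml Polybrene. Transduced cells of all 3 libraries were selected for 2 days with 2 μg/ml puromycin in medium with LIF, on γ-irradiated DR4 fibroblast feeders, so RNA of feeder cells can be present in each library. There was 1 library for each condition. A difference between 2 libraries therefore has no replicate check, the intervals given here cover counting error only, and reads without molecular identifiers are not independent molecules.

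Germ cells express a set of genes that most other cells keep silent. Many of these genes carry CpG-rich promoters that are methylated outside the germline, and in ES cells a Polycomb complex with the subunits PCGF6, E2F6, MGA and MAX is known to repress a part of them. The piRNA pathway silences transposons in germ cells with small RNAs bound to PIWI proteins, in granules built on Tudor domain proteins and helicases. In meiosis, cohesin rings with germ cell subunits form the chromosome axis, the synaptonemal complex joins homologous chromosomes along it, and recombination proteins repair programmed breaks. ES cells lie close to the early germline in expression, and low transcript levels of some germ cell genes are common in them.

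The control library held 72344726 reads on genes, KD-1 held 85258834 and KD-2 held 69839336. Fold changes were taken after upper-quartile scaling. A gene is called higher or lower where its ratio passed 1.5-fold, which is 0.585 on the log2 scale, and the 95% counting interval of the ratio excluded 1. Nup153 itself was at 27870, 16451 and 11126 reads in control, KD-1 and KD-2, and its log2 fold change was -0.99 with KD-1 and -1.43 with KD-2. The 12 ES cell markers summed to 1.10 times the control level with KD-1 and 0.744 times with KD-2, and none was at 0 reads. Zfp42 and Dppa5a made up 82732 and 74575 of the 352843 reads of that sum in control, and with KD-2 5 of the 12 markers were above zero and their median log2 fold change was -0.25. The 18 fibroblast markers summed to 0.580 times control with KD-1 and 1.64 times with KD-2. Of them, 12 were called lower with KD-1, beside 3.81% of all genes, and 14 higher with KD-2, beside 12.2%. In bulk RNA, fewer cells of a type and less RNA per cell cannot be told apart.

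In KD-1, 14 of the 41 germline genes were called higher and 0 lower than in control. Of all 21164 genes with a read, 5.72% were called higher and 3.81% lower in that comparison. In KD-2, 11 germline genes were called higher and 8 lower, beside 12.2% and 6.92% of all genes. The median log2 fold change of the germline genes was 0.47 in KD-1, where all genes had 0.02, and -0.15 in KD-2, where all genes had 0.00, and the KD-2 median became 0.24 when the libraries were scaled by the ES cell markers. That scaling moves all genes alike and put the median of all genes that averaged 10 reads or more at 0.40 for KD-2, above that of the germline genes, and it called 6015 of the 21164 genes higher there. Of the 41 genes, 31 were above zero with KD-1 and 19 with KD-2. By depth, the KD-1 count was 7 of 14 genes at a mean of 100 to 1000 reads, where 7.92% of all genes were called higher, and 4 of 14 genes at 1000 reads or more, where 1.19% were. At 10 to 100 reads it was 3 of 12 genes beside 15.3%, so the share lay furthest above the background among the well covered genes. In KD-2 the corresponding counts were 7 of 14 beside 22.4%, 2 of 14 beside 8.30%, and 2 of 12 beside 18.7%, so only the middle range lay well above the background.

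**Figure D1:**
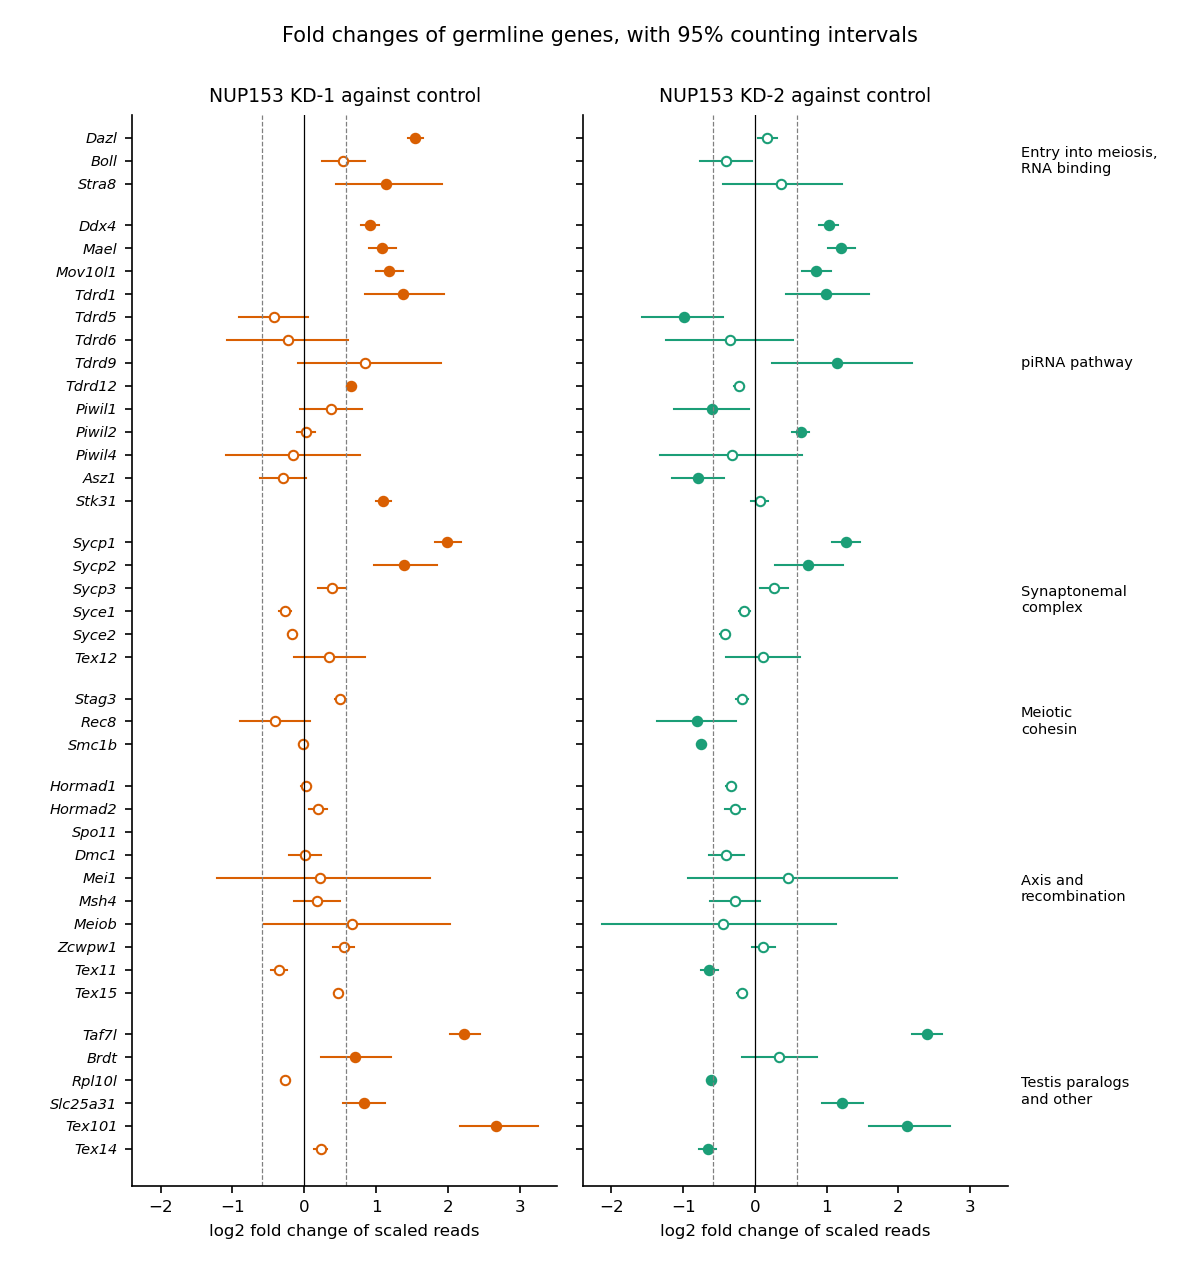
Log2 fold change of upper-quartile-scaled reads of each gene in KD-1 (left) and KD-2 (right) against the same control library. Lines are 95% counting intervals, filled circles are genes called higher or lower, dashed lines mark 1.5-fold, and Spo11 is left blank. KD-1 holds 14 filled circles, all to the right of zero, and KD-2 holds 11 to the right and 8 to the left.

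The genes called higher in both knockdown libraries were Taf7l, Tex101, Ddx4, Mael, Sycp1, Sycp2, Tdrd1, Mov10l1 and Slc25a31. They make 9 of the 41 genes, beside 1.7% of all genes. Both comparisons use the same control library, so a low value in that library alone would raise both folds. Taf7l, at chrX:134460118-134476490 in GRCm38, had 225 reads in control, 1241 with KD-1 and 1275 with KD-2. TAF7L is the germ cell paralog of TAF7, a subunit of the general transcription factor TFIID. Its fold change was 4.70 with KD-1 and 5.25 with KD-2, and the difference between the knockdown libraries was -0.16 on the log2 scale. Tex101, at chr7:24668007-24676675, encodes a surface glycoprotein of germ cells and had 34 reads in control, 258 with KD-1 and 161 with KD-2. The fold change of Tex101 was 6.40 in KD-1, with a log2 counting interval from 2.18 to 3.26, and 4.35 in KD-2, with an interval from 1.60 to 2.72. In both genes each knockdown library lay well above control, and from control to knockdown the level moved from 1.39 to 6.48 and 8.13 RPKM for Taf7l and from 0.284 to 1.83 and 1.39 RPKM for Tex101. RPKM are reads per kilobase of exon, scaled to the reads on genes of each library, and they serve here to compare levels between genes.

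Both knockdown libraries were also tested together against control with edgeR's quasi-likelihood test, which had 1 residual degree of freedom, from the spread between the 2 knockdown libraries. At an adjusted p under 0.05, 0 of the 41 genes were called, beside 0.00945% of all genes. At an unadjusted p under 0.05, 6 germline genes passed, namely Taf7l, Tex101, Sycp1, Mael, Dazl and Ddx4, beside 1.25% of all genes. Taf7l came closest, with an unadjusted p of 1.76e-05 and a Benjamini-Hochberg adjusted p of 0.0932 in edgeR's test. Its adjusted p was 0.0460 with TMM normalization, 0.0456 over genes that averaged 10 reads or more and 0.0154 in the DESeq2 Wald test, so 1 germline gene was called under each of these. It was 0.0616 with DESeq2 size factors and 0.999 with library totals. The adjusted p of Tex101 in edgeR's test was 0.625.

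Promoter sequence was examined because many germline genes are held silent at their promoters. RefSeq windows (GRCm38.p6) of 250 bases before the transcription start were found for 35 of the 41 genes. Not matched were Tdrd6, Piwil2, Tex11, Tex15, Spo11 and Meiob. The windows were searched for the E-box CACGTG, a palindrome that MAX and its partners bind, and for the E2F motif TCCCGC with its reverse complement GCGGGA. The E-box was present in 16 of the 35 windows (45.7%), and in 6.86% of 17224 windows of all counted genes. Among windows of all counted genes with at least 14 CpGs, the median count of the germline windows, 10.1% held it. The median of that set was 21 CpGs, so it is richer in CpGs than the germline windows and not matched to them. Of the 9 genes called higher in both libraries, 7 held an E-box (77.8%), all but Tex101 and Sycp2. An E-box was found for 2 of the 5 genes called in KD-1 alone, for Tdrd9, the 1 gene called in KD-2 alone that had a window, and in 6 of 20 windows of genes called higher in neither library (30%). The E2F motif was present in 12 of 35 germline windows (34.3%), in 21.9% of all windows and in 41.6% of those with at least 14 CpGs, in 2 of the 9 genes called higher in both libraries and in 10 of the 20 called higher in neither. A match is a run of letters and not a measured binding site. The windows of 6 genes that were higher in both libraries, had over 100 reads in control and hold an E-box are printed 5′ to 3′ on the strand of the gene, with both motifs in capitals, to show where the motif lies.
Taf7l: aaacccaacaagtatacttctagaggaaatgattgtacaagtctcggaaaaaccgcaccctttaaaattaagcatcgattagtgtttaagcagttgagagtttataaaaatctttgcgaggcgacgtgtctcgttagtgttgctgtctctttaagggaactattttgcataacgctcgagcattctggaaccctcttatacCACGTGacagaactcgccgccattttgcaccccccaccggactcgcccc
Ddx4: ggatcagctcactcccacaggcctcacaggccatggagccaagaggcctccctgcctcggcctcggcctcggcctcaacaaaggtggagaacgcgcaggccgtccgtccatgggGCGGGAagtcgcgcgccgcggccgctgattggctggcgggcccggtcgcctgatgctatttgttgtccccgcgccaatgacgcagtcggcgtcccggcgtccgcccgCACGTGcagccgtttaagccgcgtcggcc
Mael: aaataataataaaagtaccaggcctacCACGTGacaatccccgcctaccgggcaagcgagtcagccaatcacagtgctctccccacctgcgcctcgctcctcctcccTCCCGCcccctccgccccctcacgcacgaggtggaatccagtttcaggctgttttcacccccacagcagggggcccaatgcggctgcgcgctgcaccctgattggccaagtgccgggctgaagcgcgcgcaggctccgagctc
Sycp1: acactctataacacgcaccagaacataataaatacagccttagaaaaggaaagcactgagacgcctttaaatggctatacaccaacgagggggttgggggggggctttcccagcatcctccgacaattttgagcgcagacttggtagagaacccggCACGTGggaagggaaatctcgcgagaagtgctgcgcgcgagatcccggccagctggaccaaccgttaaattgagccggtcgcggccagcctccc
Mov10l1: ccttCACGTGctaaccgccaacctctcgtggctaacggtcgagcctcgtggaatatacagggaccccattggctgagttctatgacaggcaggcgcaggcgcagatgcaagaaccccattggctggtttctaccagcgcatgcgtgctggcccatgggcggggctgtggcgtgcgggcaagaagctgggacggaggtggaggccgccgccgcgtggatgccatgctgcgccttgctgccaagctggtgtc
Slc25a31: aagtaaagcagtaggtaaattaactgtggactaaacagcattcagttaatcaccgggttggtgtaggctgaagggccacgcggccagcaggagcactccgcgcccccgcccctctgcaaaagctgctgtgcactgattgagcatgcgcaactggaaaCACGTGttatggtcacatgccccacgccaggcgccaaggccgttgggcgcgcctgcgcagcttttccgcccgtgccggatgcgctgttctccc

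The windows are from GRCm38.p6 and end at the base before the start. That of Taf7l is chrX:134476491-134476740 on the minus strand, with the E-box 49 bases before the start. The Ddx4 window is chr13:112652311-112652560 on the minus strand, with an E-box 29 bases and an E2F motif 136 bases before the start. For Mael it is chr1:166238745-166238994 on the minus strand, with the E-box at 223 and the E2F motif at 143 bases. These 2 windows were the only ones of the 9 genes with both motifs. The Sycp1 window is chr3:102936101-102936350 on the minus strand, with the E-box at 94 bases. Mov10l1 has chr15:88982744-88982993 on the plus strand, with the E-box at 246 bases, and Slc25a31 has chr3:40708621-40708870 on the plus strand, with the E-box at 93 bases. In the seventh gene, Tdrd1, the E-box lay 11 bases before the start. The distance thus ranged from 11 to 246 bases among the 7 genes.

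The piRNA pathway was the largest group, with 13 genes. In KD-1, 6 were called higher and 0 lower, beside 5.72% and 3.81% of all genes, and in KD-2, 6 were called higher and 3 lower, beside 12.2% and 6.92%, with Ddx4, Mael, Mov10l1 and Tdrd1 called higher in both. Ddx4 encodes the VASA helicase of germ granules and had 744, 1639 and 1631 reads in control, KD-1 and KD-2. Its log2 fold change was 0.91 with KD-1 and 1.02 with KD-2, and the 2 knockdown libraries lay closer to each other than to control. Mael, which encodes a granule protein needed for transposon silencing, had 324, 809 and 804 reads, with log2 fold changes of 1.09 and 1.20. Mov10l1, the helicase that binds piRNA precursors, had 317, 845 and 617 reads and log2 fold changes of 1.18 and 0.85. Mov10, its paralog outside the germline, was called in neither library. Tdrd1, a Tudor domain scaffold that binds PIWI proteins, was far lower at 0.0990 RPKM in control, with 39, 119 and 84 reads, and its log2 fold change was 1.37 with KD-1 (interval 0.85 to 1.94) and 0.99 with KD-2 (interval 0.44 to 1.59).

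Other genes of the pathway differed between the knockdown libraries. Tdrd12, a Tudor domain helicase of secondary piRNA production, had 3036 reads in control, 5599 with KD-1 and 2804 with KD-2. It was called higher in KD-1 at a log2 fold change of 0.65, was at -0.22 in KD-2, and lost the KD-1 call under ES marker scaling (0.51). Stk31, which encodes a Tudor domain kinase, had 1044, 2627 and 1178 reads, at 1.10 with KD-1 and 0.07 with KD-2. For both genes KD-2 lay near control and KD-1 above it. Piwil2, at chr14:70372477-70429383, which encodes the PIWI protein MILI, showed the opposite order with 960, 1148 and 1606 reads. Its log2 fold change was 0.03 with KD-1 and 0.64 with KD-2, and it was the only germline gene called lower with KD-1 than with KD-2, at -0.61. Piwil1, the PIWI protein MIWI, had 76, 115 and 54 reads, with 0.37 with KD-1 and -0.60 with KD-2, and its call in KD-2 was lost under each of 4 other scalings. Asz1, a mitochondrial protein of the granules, had 172, 164 and 107 reads, at -0.30 and -0.79.

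The remaining piRNA genes were low, at 14 to 80 reads in control. Tdrd5 was called lower in KD-2 at -0.99, Tdrd9 was called higher in KD-2 at 1.15, and Tdrd6 and Piwil4 were called in neither library. In KD-1 Tdrd9 stood at 0.85 and was not called, as its interval ran from -0.09 to 1.90. A list of 17 other genes of the pathway held 3 called higher in KD-1 (Fkbp6, Tex19.1 and Tex19.2), beside 5.72% of all genes, 1 called higher in KD-2 (Tex19.2), beside 12.2%, and none called lower in either. Tex19.1 is a mammal-specific germ cell gene also expressed in ES cells, and it had 1958, 3996 and 1893 reads in control, KD-1 and KD-2. Its log2 fold change was 0.80 with KD-1 and -0.16 with KD-2. Its close copy Tex19.2, with which it may share reads, had 251, 698 and 429 reads.

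Of the 6 synaptonemal complex genes, Sycp1 and Sycp2 were called higher in both knockdown libraries, as were 1.7% of all genes, and the others in neither. Sycp1 encodes the transverse filament, and its reads numbered 303 in control, 1417 with KD-1 and 784 with KD-2. The level went from 1.18 RPKM in control to 4.67 with KD-1 and 3.16 with KD-2, and the log2 fold change was 2.00 and 1.26. Sycp2, of the axial element, had 60, 186 and 108 reads, at 1.40 with KD-1 (interval 0.98 to 1.85) and 0.74 with KD-2 (interval 0.27 to 1.22). Both genes were called higher in KD-1 than in KD-2, at 0.73 for Sycp1 and 0.66 for Sycp2. The central element genes Syce1 and Syce2 were abundant, at 24.6 and 31.8 RPKM in control. Syce1 had 2594, 2524 and 2525 reads and Syce2 had 4521, 4727 and 3645, with log2 fold changes from -0.42 to -0.15 over the 2 genes and both libraries. Tex12, also of the central element, was called in neither library. Sycp3, which pairs with Sycp2 in the axis, had 368, 564 and 477 reads and log2 fold changes of 0.39 and 0.27, the latter 0.69 and called under ES marker scaling. Sycp3 shares 660 of 1264 exon bases with Chpt1 on the opposite strand. The strand setting of the counting is not stated, so reads of this pair cannot be assigned to either gene with certainty. Chpt1 was at 0.23 with KD-1 and 0.43 with KD-2.

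Of the 3 meiotic cohesin genes, none was called with KD-1, and Smc1b and Rec8 were called lower with KD-2, where 6.92% of all genes were. Smc1b, at chr15:85064689-85131964, encodes the germ cell partner of SMC3 and had 5998 reads in control, 6949 with KD-1 and 3853 with KD-2. Its log2 fold change was -0.02 with KD-1 and -0.75 with KD-2. Rec8, the meiotic kleisin subunit, had 48 to 78 reads, at -0.40 with KD-1 (interval -0.89 to 0.08) and -0.80 with KD-2 (interval -1.36 to -0.27). Stag3, the germ cell SA subunit, had 2116, 3520 and 2009 reads, at 0.51 in KD-1, just under the threshold, and -0.18 in KD-2. Both KD-2 calls were lost when the libraries were scaled by ES cell markers, which put Smc1b at -0.32 and Rec8 at -0.38.

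The somatic cohesin genes were listed beside their germ cell paralogs. Rad21, the somatic kleisin, was at 0.32 with KD-1 and -0.65 with KD-2, and Smc1a was at -0.23 and -0.81. Stag1 was at -0.04 and -0.39, and Stag2 at 0.00 and -0.37. Under upper-quartile scaling the KD-2 library was thus lower for the germ cell and the somatic forms of SMC1 and of the kleisin alike. In that comparison 6.92% of all genes were called lower. The shift of 0.43 by ES marker scaling brings Rad21 and Smc1a inside 1.5-fold too.

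Of the 10 genes of the chromosome axis and recombination, none was called higher in either library, and 1 was called lower, Tex11 in KD-2, which is near the shares of all genes (5.72% and 12.2% higher, 6.92% lower in KD-2). Tex11, an X-linked gene needed for crossing over, had 1396, 1285 and 969 reads, at -0.35 and -0.63. Hormad1, a HORMA domain protein of the axis, was among the most abundant germline genes at 29.5 RPKM in control, with 3684, 4392 and 3151 reads and log2 fold changes of 0.03 and -0.33. Of its 50-base stretches of transcript, 22.9% also occur in other genes. Its paralog Hormad2 had 926, 1243 and 820 reads, at 0.20 and -0.28. Dmc1, the meiotic recombinase, had 311, 366 and 254 reads, at 0.01 and -0.40. Msh4, of the crossover complex MutSγ, had 146, 193 and 130 reads, at 0.17 and -0.27. None of these 4 genes was called, and ES marker scaling moved their KD-2 values, with those of all genes, to between 0.03 and 0.15, below the all-gene median of 0.40. Tex15 had 3839, 6232 and 3639 reads, at 0.47 and -0.18, and was called higher in KD-1 than in KD-2 at 0.65. Zcwpw1, a reader of histone methylation in meiosis, had 609, 1044 and 712 reads, at 0.55 and 0.12. It shares 468 of 5697 exon bases with Pilra on the opposite strand. Spo11, which makes the meiotic breaks, had 0 reads in control, 2 with KD-1 and 0 with KD-2, so no fold is given. Mei1 and Meiob had 7 to 17 reads in the libraries and were called in neither.

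Of the 3 genes for RNA-binding proteins and for entry into meiosis, Dazl and Stra8 were called higher in KD-1, beside 5.72% of all genes, Boll was not, and none was called in KD-2, beside 12.2% higher and 6.92% lower. Dazl, at chr17:50279395-50293636, encodes an RNA-binding protein that licenses germ cell development and had 881 reads in control, 3022 with KD-1 and 1070 with KD-2. Its log2 fold change was 1.55 with KD-1 (interval 1.44 to 1.66) and 0.17 with KD-2 (interval 0.04 to 0.30), which became 0.60 and a call under ES marker scaling. The difference between the knockdown libraries was 1.38, the largest under upper-quartile scaling among the 40 genes given a fold, and the only higher call between KD-1 and KD-2 that held under all 4 other scalings. Boll, of the same family, had 147, 251 and 120 reads, at 0.54 with KD-1 and -0.40 with KD-2. Stra8, the retinoic acid target that starts meiosis, had 23, 60 and 32 reads, at 1.14 with KD-1 (interval 0.44 to 1.92) and 0.36 with KD-2.

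The last group holds 4 testis paralogs of general genes and 2 other genes. Besides Taf7l and Tex101, Slc25a31, the germ cell ADP/ATP carrier, was called higher in both libraries, with 145, 303 and 363 reads and log2 fold changes of 0.83 and 1.21. Brdt, the germ cell BET protein, was called higher in KD-1 at 0.71 and was at 0.33 in KD-2, and ES marker scaling moved its call from KD-1 (0.57) to KD-2 (0.75). Rpl10l, at chr12:66283379-66284401, is an autosomal retrogene of the X-linked Rpl10 and had the highest level of all, 83.0 RPKM in control, with 6140, 5965 and 4316 reads. It was at -0.27 with KD-1 and was called lower with KD-2 at -0.62, a call lost under each of 4 other scalings. Of its 50-base stretches of transcript, 7.60% also occur in other genes. Rpl10 itself had 193103 reads in control. Only exact matches were counted, so reads of Rpl10 or its copies placed on Rpl10l with mismatches were not examined. Tex14, a protein of the bridges between germ cells, had 1525, 2093 and 1039 reads, at 0.23 with KD-1 and -0.66 with KD-2. Of 14 paralogs used outside the germline, 0 were called higher in either library, where 5.72% and 12.2% of all genes were, and 5 were called lower in KD-2 (Taf7, Rpl10, Rad21, Smc1a and Slc25a5), where 6.92% were, at -0.81 to -0.60, values that the shift of 0.43 by ES marker scaling brings inside 1.5-fold. Taf7 had 14283, 15468 and 9558 reads, at -0.11 with KD-1, where it was not called, and -0.69 with KD-2. Taf7l was called higher in both libraries. Rpl10 was at -0.19 and -0.65, near Rpl10l, and the carrier genes Slc25a4 and Slc25a5 were at -0.05 and 0.00 and at -0.04 and -0.60.

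**Figure D2:**
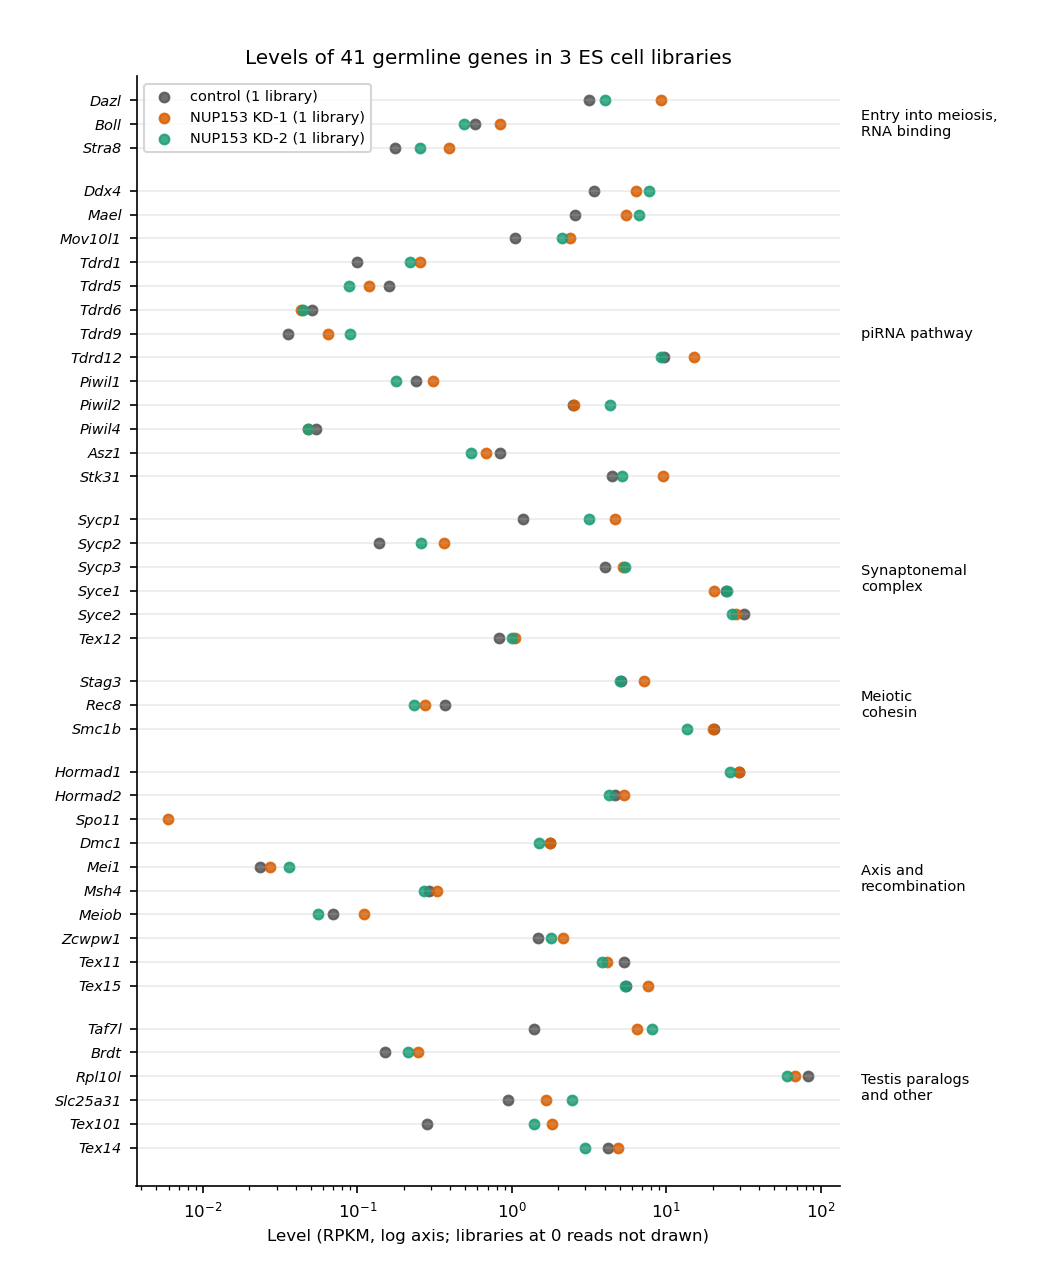
Level of each germline gene in the 3 libraries in RPKM on a log axis, with 1 point per library and libraries at 0 reads left out. Control levels run from 0 to 83.0 RPKM with a median of 1.18, and both knockdown points of Taf7l, Tex101 and Sycp1 lie to the right of the control point.

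The levels in control varied widely among the 41 genes. In that library 22 genes were above 1 RPKM, and the median was 1.18 RPKM. The 9 genes called higher with both shRNAs lay between 0.0990 and 3.41 RPKM in control, with a median of 1.05, near that of all 41. The 8 genes called lower in KD-2 ran from 0.159 to 83.0 RPKM. Of the genes above 20 RPKM in control, namely Rpl10l, Syce2, Hormad1, Syce1 and Smc1b, none was called higher in either library, which is near the 1.19% and 8.30% of all genes with 1000 reads or more.

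Between the 2 knockdown libraries, 12 germline genes were called higher in KD-1 and 1 lower, beside 9.97% and 12.3% of all genes. The 12 were Dazl, Stk31, Piwil1, Boll, Tex14, Tdrd12, Stra8, Sycp1, Smc1b, Stag3, Sycp2 and Tex15. This comparison depended on the scaling more than those against control. The median log2 difference between KD-1 and KD-2 over the germline genes was 0.40, beside 0.11 over all genes, and it became -0.16 under ES marker scaling, which moved the median of all genes that averaged 10 reads or more by -0.56. In the same scaling 1 germline gene was called higher and 7 lower, where 215 and 6564 of the 21164 genes were. Against control, ES marker scaling moved that median of all genes by -0.14 for KD-1 and 0.43 for KD-2, and library totals moved it by 0.16 for KD-2. Against control, 12 of the 14 higher calls with KD-1 held under all 4 other scalings (TMM, DESeq2 size factors, library totals and ES markers). So did 11 of the 11 higher calls with KD-2, and 0 of the 8 lower ones. By that median of all genes, all 4 moved KD-2 upward, by 0.04 to 0.43. A higher call there could thus not be lost, while a lower call could. Rec8, Smc1b, Tdrd5 and Asz1 stayed called lower under TMM, DESeq2 size factors and library totals. All 4 moved KD-1 downward, so its higher calls could be lost.

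**Figure D3:**
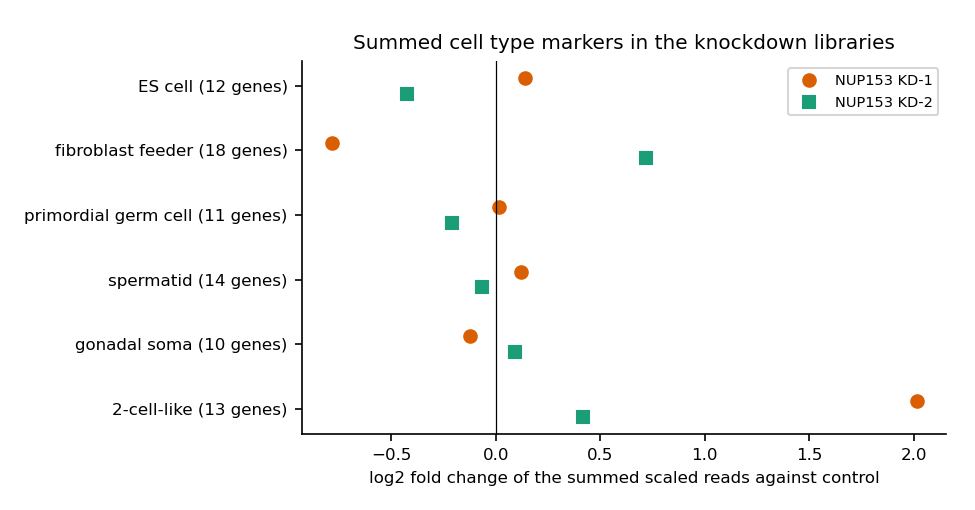
Log2 fold change of the summed scaled reads of each marker list in KD-1 (circles) and KD-2 (squares) against control, with 1 library each. Fibroblast markers sat at 0.580 times control with KD-1 and 1.64 times with KD-2, and the summed 2-cell-like markers at 4.04 times in KD-1.

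Markers of other cells were read beside the germline genes. The 2-cell-like markers, genes such as Zscan4c that mark a rare state within ES cultures, summed to 352 reads in control, 1665 with KD-1 and 507 with KD-2. That sum was 4.04 times control with KD-1 and 1.34 times with KD-2. Of 13 genes, 9 were called higher with KD-1, beside 5.72% of all genes, and 3 with KD-2, beside 12.2%. Zscan4c itself had 53, 363 and 82 reads, and Tcstv1 was at 0 in control. Zscan4b, Zscan4d and Usp17lb were the 3 called higher with KD-2. The part of this state in the germline values was not tested. The summed fibroblast markers lay on opposite sides of control in the 2 knockdown libraries, and none was at 0. Their part in the lower germline calls of KD-2 was not tested. The 11 primordial germ cell markers, which include Dazl and Ddx4, summed to 1.01 times control with KD-1 and 0.864 times with KD-2, and none was at 0. Ifitm3 made up 10343 of the 29895 reads of that sum in control, and within the list Dazl and Ddx4 were called higher with KD-1, and Ddx4 higher and Prdm1 and Dppa3 lower with KD-2. The spermatid markers had 0 reads for Prm2, Tnp2 and Akap4 in control, and the summed level of the 14 genes was 1.09 times control with KD-1 and 0.956 times with KD-2. Odf2, which other tissues also express, made up 10479 of the 11122 reads of that sum in control, so the ratio is mostly that of Odf2. In that list 0 genes were called with KD-1, and Zpbp was called higher with KD-2. The gonadal soma markers summed to 0.919 and 1.07 times control, with Foxl2 and Hsd3b1 at 0 in control and in KD-2. Star with 629 reads and Sox9 with 242 made up most of the 965 reads of that sum in control. Against control Amh alone of the list was called, higher with KD-2, at 4, 8 and 15 reads, and Sox9 was called lower in the comparison of KD-1 with KD-2, at -0.71.

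Further germ cell genes outside the 41 were read from 2 lists. Among 29 other meiosis genes, 2 were called higher in KD-1 (Fkbp6, also in the piRNA list, and Spata22) and 1 lower (Tex16), near the 5.72% and 3.81% of all genes. In KD-2 none was called higher and 6 lower, beside 12.2% and 6.92%. Among the 6 were Mnd1, a strand exchange factor, at -0.75, and Mei4, a break factor, at -1.16. The shift of 0.43 by ES marker scaling brings Mnd1, Ccnb1ip1 and Trip13 inside 1.5-fold, and not Mei4, Meikin or Tex16. Among 35 other germ cell genes with a read, 7 were called higher and 2 lower with KD-1, and 5 higher and 11 lower with KD-2. Of these counts, the 2 lower with KD-1 and the 5 higher with KD-2 lay near the shares of all genes (3.81% and 12.2%). The 7 and the 11 lay above them (5.72% and 6.92%). Of the 11, the same shift brings Prdm1, Magea4, Magea5, Xlr3a, Xlr5a, Usp26 and Nxt2 inside 1.5-fold, and not Dppa3, Ldhc, Rhox6 or Rhox9. Dppa3, a maternal and germ cell factor that guards DNA methylation, had 5419, 4567 and 1912 reads, at -0.48 with KD-1 and -1.61 with KD-2. The X-linked homeobox genes Rhox6 and Rhox9 were lower in both libraries, with Rhox6 at -0.95 and -1.55 and Rhox9 at -0.88 and -1.55. Nxf2, an X-linked RNA export gene of germ cells, was called higher in both, with 108, 315 and 275 reads at 1.31 and 1.24.

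A list of Polycomb, DNA methylation and other chromatin genes, most of them tied to the silencing of germline genes, also held the DNA demethylation enzymes Tet1 and Tet2. Of its 27 genes, 1 was called higher in KD-1 (Zfp57, at 0.72) and 0 lower. In KD-2, Yaf2 was called higher at 0.71, and Cbx3, Dnmt3b and Hells lower at -0.65, -0.66 and -0.63. The higher counts lay below the shares of all genes (5.72% with KD-1 and 12.2% with KD-2), and the 3 lower in KD-2 lay near theirs (6.92%). The Polycomb subunits Pcgf6, E2f6, Mga, Max and L3mbtl2 were between -0.05 and 0.27 with KD-1, and between -0.50 and -0.07 with KD-2, and none was called. Dnmt1, the maintenance DNA methyltransferase, was at -0.15 and -0.50, and its partner Uhrf1 at 0.09 and -0.49. The median of the list was 0.13 with KD-1 and -0.39 with KD-2, the latter being smaller than the shift by ES marker scaling.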

How the data were processed

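The authors trimmed 50 bp single-end reads of ribosomal RNA-depleted total RNA (Trim Galore 0.4.1), mapped them to mm10 (TopHat2 2.1.1) and deposited raw counts per gene. Their processing notes name HTSeq and the methods featureCounts as the counter, with the strand setting not stated. Summary lines (no feature, 21.5% to 24.1% of reads per library) were left out. Folds were taken from counts scaled by edgeR's upper quartile, with a pseudocount of 0.5 reads and an exact Clopper-Pearson interval. The likelihood ratio test of the study was not used, as its fixed dispersion was not at hand. The joint test was edgeR 4.0.16's quasi-likelihood test (R 4.3.3, tested on simulated data), which assumes that control varies like the knockdown libraries. Alternatives were DESeq2 1.42.0, TMM, library totals, ES marker totals, a filter at 10 reads, a 2-fold threshold, a pseudocount of 5 and a 99% interval. Exon lengths came from GENCODE M21 (GRCm38), matched by symbol for 23376 genes. Values are given per library for genes that averaged 100 reads or more, or called in both knockdowns or between them, with Spo11 for its 0 reads, and others by range. Germline genes, lists and motifs were chosen with earlier results of these data known.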

Additional observations from a re-analysis of the deposited data

How the results depend on the processing

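No paired analysis was possible because each group holds 1 library and the replicate numbers pair nothing. The 14 higher calls in KD-1 stayed between 12 and 14 under each scaling and filter tried. The 11 higher calls in KD-2 stayed between 11 and 14. Each scaling tried, and the filter, moved KD-2 values upward against control, so a higher call there could not be lost. At 2-fold the higher calls were 10 (KD-1) and 7 (KD-2), where 584 and 936 of all 21164 genes were called higher. The 8 lower calls in KD-2 became 4 with library totals, 5 with only genes of a mean of at least 10 reads, 0 at 2-fold and 0 with ES marker scaling, which was added after seeing the data. The 12 higher calls in KD-1 against KD-2 became 6 with library totals, 2 at 2-fold and 1 with ES marker scaling, and the 1 lower call became 0 at 2-fold and 7 with ES marker scaling. The quasi-likelihood call of 0 genes became 1 with TMM, with the filter at a mean of 10 reads and with the DESeq2 Wald test. Without either knockdown library no residual degree of freedom remains, and Taf7l is then 2.39 or 2.23 on the log2 scale. Of all calls in KD-1, 60.0% were higher, which became 49.5% with DESeq2 size factors and 38.1% with ES marker scaling, and in KD-2 63.8% became 84.8% with library totals and 96.8% with ES marker scaling. The causes were not tested. Log2 fold changes of the germline genes moved by more than the counting interval in 15 and 26 of 40 genes, for KD-1 and KD-2, with ES marker scaling. Depth limits Spo11, Mei1 and Meiob.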
